A study of Homo sapiens with 12 samples.

Results

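A set of 10 genes of NF-kB signalling was followed across 4 lines of HMLE cells: the subunit genes NFKB1, NFKB2, REL, RELA and RELB, and 5 genes that NF-kB induces, NFKBIA, TNFAIP3, BIRC3, TNIP1 and SOD2. They were taken by name from the 61533 gene entries of each library, by a list that uses no measured value but was drawn up with earlier results of these data known, and all 10 were among the 15616 genes with enough counts to test. HMLE cells are human mammary epithelial cells that telomerase and SV40 antigens keep dividing. Going by the labels, the lines overexpressed a Control construct, CT83, HORMAD1, or HORMAD1 with CT83 (the double line), and all 4, controls included, went through puromycin selection; no other treatment is named. HORMAD1 is normally a meiotic chromosome protein and CT83 is an X-linked cancer/testis gene, and the design asked what each does in these cells and whether they cooperate. Each line had 3 libraries of polyadenylated RNA, 12 in all, and each construct is represented by 1 line, so that a difference between constructs and a difference between lines cannot be told apart. Separate cultures are not mentioned in the labels, so the p-values reflect library-to-library spread that may be technical only.

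NF-kB is a family of dimeric transcription factors. In resting cells the IkB proteins hold most dimers in the cytoplasm; signals from TNF, interleukin-1 and Toll-like receptors activate the IKK kinase complex, which marks IkB for destruction and frees the dimers to enter the nucleus and bind kappaB sites. NFKB1 encodes p105, the precursor of p50, and NFKB2 encodes p100, the precursor of p52; RELA, RELB and REL encode subunits with transactivation domains. Several targets shut the signal off again. NFKBIA encodes IkB alpha, TNFAIP3 the ubiquitin-editing enzyme A20, and TNIP1 a ubiquitin-binding partner of A20; BIRC3 encodes cIAP2, a ubiquitin ligase that acts at TNF receptors, and SOD2 the manganese superoxide dismutase of mitochondria. Mammary epithelial cells use the pathway in inflammatory and survival responses. These data measure RNA of the genes, not the activity or location of the proteins.

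The 250 bases before the start site were searched for the kappaB consensus GGGRNNYYCC (R is A or G, Y is C or T, N is any base). Both strands were searched, and overlapping matches were counted separately. In the RefSeq promoter table (GRCh38.p14), 9 of the 10 genes had a window, and 7 of the 9 had a match in at least 1 window. By window, 8 of 17 held a match (47.1%), against 9.96% of all 35116 windows of the same length. The genes were picked as known subunits and targets of NF-kB, so a higher share was to be had by that choice alone. Windows of the same gene are not independent. The 3 feedback genes below are shown because the differences between lines were largest in 2 of them, TNFAIP3 and BIRC3, while NFKBIA, the IkB alpha gene, carries a match and did not share that pattern. Capitals mark the bases of a match, read 5' to 3' on the gene's strand.
TNFAIP3, chr6:137867009-137867258, plus strand: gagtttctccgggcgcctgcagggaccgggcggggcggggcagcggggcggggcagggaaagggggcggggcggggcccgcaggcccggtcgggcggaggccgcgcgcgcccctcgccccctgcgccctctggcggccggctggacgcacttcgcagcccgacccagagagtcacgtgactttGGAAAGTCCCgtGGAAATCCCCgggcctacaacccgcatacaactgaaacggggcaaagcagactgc
BIRC3, chr11:102317234-102317483, plus strand: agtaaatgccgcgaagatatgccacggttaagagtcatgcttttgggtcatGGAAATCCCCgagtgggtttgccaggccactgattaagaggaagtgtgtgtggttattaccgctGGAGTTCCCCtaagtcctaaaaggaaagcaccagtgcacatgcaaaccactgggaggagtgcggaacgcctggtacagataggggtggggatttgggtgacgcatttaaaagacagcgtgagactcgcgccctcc
NFKBIA, chr14:35404750-35404999, minus strand: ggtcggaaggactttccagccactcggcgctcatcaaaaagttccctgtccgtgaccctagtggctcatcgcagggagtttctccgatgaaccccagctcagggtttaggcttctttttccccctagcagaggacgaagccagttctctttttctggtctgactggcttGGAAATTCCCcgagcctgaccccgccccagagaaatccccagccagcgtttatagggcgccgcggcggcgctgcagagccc
The matches of TNFAIP3 lay 67 to 58 and 55 to 46 bases before the start, those of BIRC3 199 to 190 and 135 to 126 bases before it, and that of NFKBIA 81 to 72 bases before it. In the other windows, matches were found for NFKB1, NFKB2, REL and TNIP1, and these letters were in no window of RELA or SOD2. In GENCODE 29 (GRCh38) TNFAIP3 starts earlier than in RefSeq, at 137867188, so that its matches lie within the GENCODE gene. A match describes the sequence only; binding was not measured here.

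By GENCODE 29 all 10 are protein-coding genes. The subunit genes lie at chr4:102501329-102617302 (NFKB1), chr10:102394110-102402529 (NFKB2), chr2:60881521-60931610 (REL), chr11:65653596-65663094 (RELA) and chr19:45001430-45038198 (RELB). The feedback genes lie at chr14:35401511-35404749 (NFKBIA), chr6:137867188-137883312 (TNFAIP3), chr11:102317450-102339403 (BIRC3), chr5:151029945-151093577 (TNIP1) and chr6:159669057-159745186 (SOD2). Values below are sums over the whole gene, without isoforms.

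The library checks below touch every result. Library totals ran from 9898845 to 14159740 counts. HORMAD1 had no counts in the control and CT83 libraries and stood at 290.0 ± 75.5 CPM (CPM is the count scaled to library size, with TMM factors; SD, n = 3) in the HORMAD1 line and 314 ± 31.8 in the double line. CT83 had no counts in the control and HORMAD1 lines and stood at 523 ± 175 CPM in the CT83 line but 102 ± 15.6 in the double line, so the double line carried less CT83 RNA than the CT83 line. All 5 basal epithelial markers were detected in every line, with summed levels of 4716 to 6558 CPM. The 5 luminal markers summed to 3948 to 4466 CPM in control, 3296 to 3583 with CT83, 3444 to 4454 with HORMAD1 and 3063 to 3657 in the double line, so that control lay above the CT83 and double lines; KRT8, KRT18, EPCAM and CDH1 made up these sums and KRT19 was at 0.169 to 1.49 CPM. The part of this difference in the results below was not tested. Markers of leukocytes, in which many NF-kB genes are also high, summed to 6.04 to 9.21 CPM over 9 genes; PTPRC had at most 1 count in any library, CD2 and MS4A1 had none, and CD14 at 4.03 to 7.98 CPM made up most of the sum. The 5 endothelial markers summed to at most 1.69 CPM and the 9 fibroblast markers to 35.3 to 102 CPM. In bulk RNA, fewer cells of a type and less RNA per cell cannot be told apart. The libraries also differed in how strongly counts moved with gene length, the length trend. HORMAD1 replicate 1, CT83 replicate 3 and control replicate 2 had the steepest rise, and counts are also given without these 3 libraries. That set leaves out no double library. Double replicates 1 and 2 had the steepest fall (slopes -0.0336 and -0.0215, against 0.0215 for control replicate 2) and were kept.

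Compared per kilobase of merged exons, NFKBIA had the highest level, 48.4 ± 6.55 CPM per kb (SD over 12 libraries), followed by TNIP1 at 38.3 ± 2.97. SOD2 (15.2 ± 1.05), BIRC3 (14.9 ± 3.03) and NFKB1 (13.7 ± 1.29 CPM per kb) formed a middle group whose ranges overlapped. RELA (11.2 ± 1.23) and NFKB2 (10.8 ± 1.86) did not differ beyond their spread, TNFAIP3 followed at 8.76 ± 1.58 and RELB at 6.62 ± 0.669, and REL was lowest at 0.598 ± 0.0917 CPM per kb. The ranges of neighbours in this order overlapped, except that TNIP1 lay above SOD2 and RELB above REL in every library. The order of the first 4 depended on the length used: with the median transcript length, SOD2 came first at 359.7, before BIRC3 at 169, NFKBIA at 143 and TNIP1 at 127 CPM per kb, and ranks 5 to 10 were unchanged. In the control line alone, NFKB1 (14.6 ± 0.713) and BIRC3 (14.3 ± 1.87 CPM per kb of merged exons) were within their spread of each other.

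**Figure D1:**
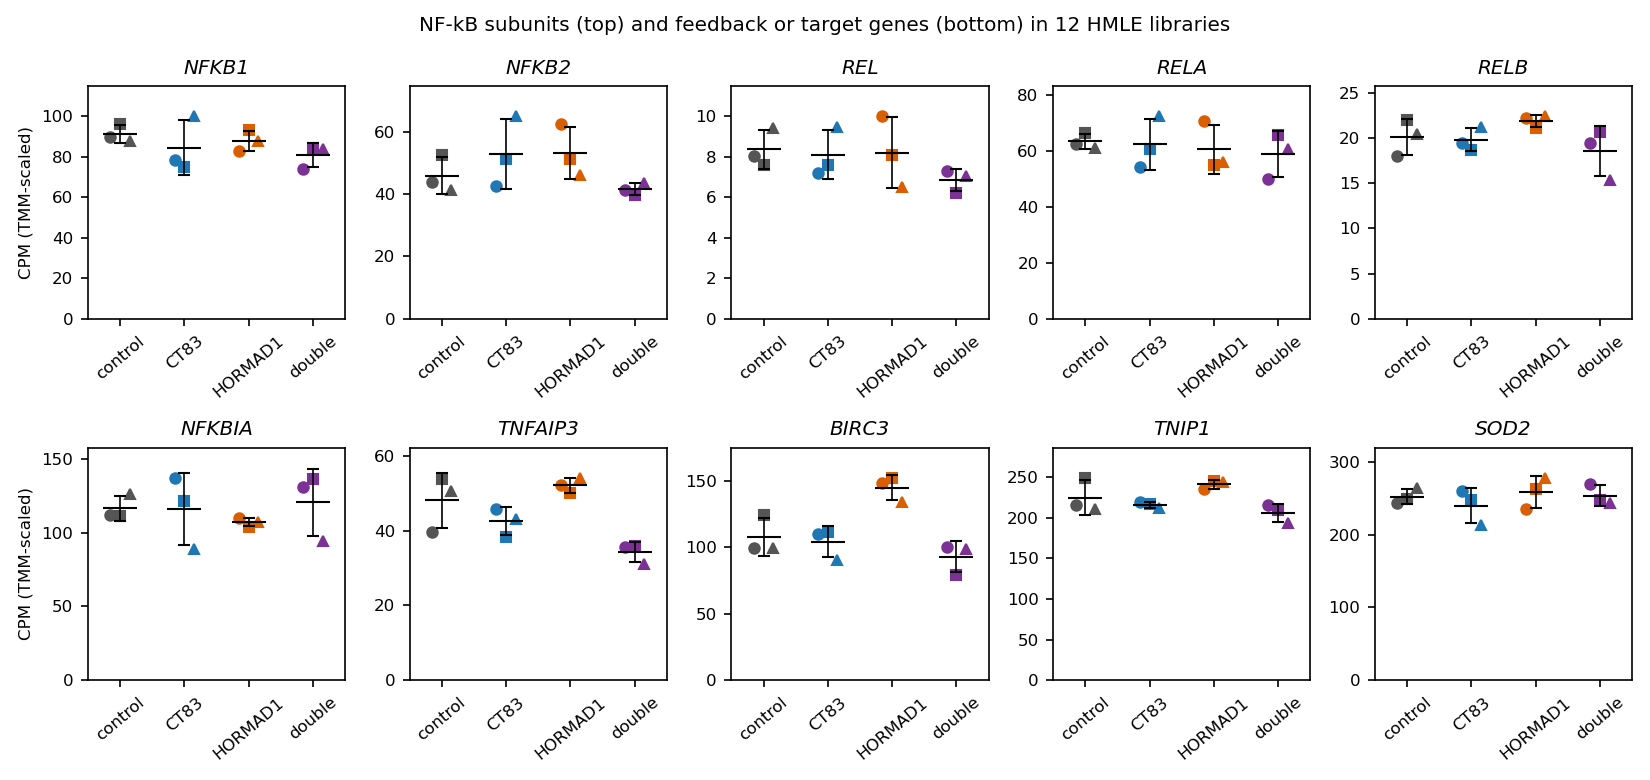
CPM of each of the 10 genes in the 12 libraries, by line; points are libraries and bars are line means. BIRC3 is high in all 3 HORMAD1 libraries (134 to 152 CPM) and TNFAIP3 is low in all 3 double libraries (31.1 to 36.0 CPM).

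None of the 10 genes passed the genome-wide test in any of the 7 comparisons: edgeR's quasi-likelihood test, Benjamini-Hochberg adjusted p under 0.05, called 0 of 10 in each. This stands beside a nearly empty background. Of all 15616 genes, 0.00640% were called higher and 0.00% lower in CT83 against control, 0.00640% and 0.00% in HORMAD1 against control, and 0.0128% and 0.0128% in the double line against control. The shares were 0.00640% higher and 0.00% lower for the double line against CT83, 0.00640% and 0.0384% for the double line against HORMAD1, 0.00% and 0.00% for the interaction, and 0.0448% for any difference between the 4 lines. At an unadjusted p under 0.05, the counts of the 10 were 0, 1, 1, 2, 4 and 3 in the 6 signed comparisons in that order, where the shares of all genes were 2.74%, 1.82%, 5.56%, 8.05%, 7.59% and 4.50%. In the test of any difference between the 4 lines, 2 of the 10 (BIRC3 and TNFAIP3) had an unadjusted p under 0.05, against 4.83% of all genes. DESeq2 called those 2 for the double line against HORMAD1 and for any difference, and 0 elsewhere, and limma-voom called 0 in all 7.

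The 2 ubiquitin-related feedback genes BIRC3 and TNFAIP3 carried the clearest differences. BIRC3, the cIAP2 gene, was at 99.6, 124 and 99.4 CPM in the control libraries, 110.2, 111 and 90.5 with CT83, 148, 152 and 134 with HORMAD1, and 100.2, 79.4 and 98.7 in the double line. All 3 HORMAD1 libraries lay above all 9 others, and the other 3 lines overlapped. The HORMAD1 line stood 1.35-fold above control (log2 fold change 0.43, SE 0.11, unadjusted p = 0.00194, edgeR adjusted p = 1.00), with no overlap between the 3 and 3 libraries, for which the exact permutation p was 0.1, the smallest possible. The double line stood at 64.0% of the HORMAD1 line (log2 fold change -0.64, SE 0.12, unadjusted p = 5.20e-05, edgeR adjusted p = 0.0811), the 10th smallest p of 15616. The interaction, which asks whether the double line departs from the sum of both single lines' log2 changes, was -0.60 (SE 0.16, unadjusted p = 0.00235, edgeR adjusted p = 0.841). CT83 stood at 102 CPM in the double line and 523 in the CT83 line, so no interaction value here compares equal CT83 levels. In the test of any difference between the 4 lines BIRC3 had the 12th smallest p (0.000301, edgeR adjusted p = 0.365). The double line and control did not differ detectably (log2 fold change -0.21, approximate 95% interval -0.48 to 0.05).

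TNFAIP3, the A20 gene, was at 39.7, 53.8 and 50.7 CPM in control, 45.9, 38.4 and 43.2 with CT83, 52.2, 50.1 and 54.1 with HORMAD1, and 35.7, 36.0 and 31.1 in the double line. All 3 double libraries lay below all 9 others. The control libraries were the most spread and overlapped both single lines, while the CT83 libraries all lay below the HORMAD1 libraries. Against control the double line was at 71.4% (log2 fold change -0.49, SE 0.12, unadjusted p = 0.000785, edgeR adjusted p = 0.652); against CT83 it was at 80.7% (-0.31, SE 0.12, unadjusted p = 0.0179, adjusted p = 0.585). Against HORMAD1 it was at 65.7% (log2 fold change -0.61, SE 0.12, unadjusted p = 0.000103, edgeR adjusted p = 0.124), and the exact permutation p was 0.1 in each of these 3 comparisons. Neither single line differed from control by an interval that excluded 0, with HORMAD1 at 0.12 (SE 0.11) and CT83 at -0.18 (SE 0.12). The antisense RNA gene WAKMAR2, which overlaps TNFAIP3, had at most 70 counts in any library.

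For the double line against HORMAD1, DESeq2 called BIRC3 (adjusted p = 0.00105) and TNFAIP3 (adjusted p = 0.00733), where it called 0.199% of all genes lower and 0.199% higher. With no low-count filter edgeR called the same 2 (adjusted p = 7.44e-06 and 0.00128), against 0.163% of 28220 genes lower. BIRC3 alone also passed without control replicate 2 (edgeR adjusted p = 0.0443) and without CT83 replicate 3 (0.0344). Over the fits that left out each library in turn, 0 to 39 of all genes were called in this comparison. A further fit left out the 3 libraries with the steepest rise with length, none of them from the double line, after the data were seen. In it edgeR called BIRC3 (-0.63, adjusted p = 0.000247), TNFAIP3 (-0.61, 0.00347) and TNIP1 (-0.25, 0.0343), where 1.13% of all genes were called lower. In that same reduced set BIRC3 also passed for HORMAD1 against control (0.53, edgeR adjusted p = 0.0394, with 0.0383% of genes called higher) and for the interaction (-0.78, edgeR adjusted p = 0.0115, 0.0447% of genes lower). That set left out control replicate 2, the highest control library for BIRC3 (124 CPM, against 99.6 and 99.4). Without any single library, the edgeR adjusted p of BIRC3 was at least 0.844 for HORMAD1 against control and 0.610 for the interaction. The log2 values of BIRC3 and TNFAIP3 in the double line against HORMAD1 ran from -0.60 to -0.65 in the fits above that called them, named because they passed. Over all alternatives BIRC3 ran from -0.70 to -0.54 (edgeR adjusted p up to 0.311). TNFAIP3 ran from -0.64 to -0.54 (edgeR adjusted p up to 0.342).

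**Figure D2:**
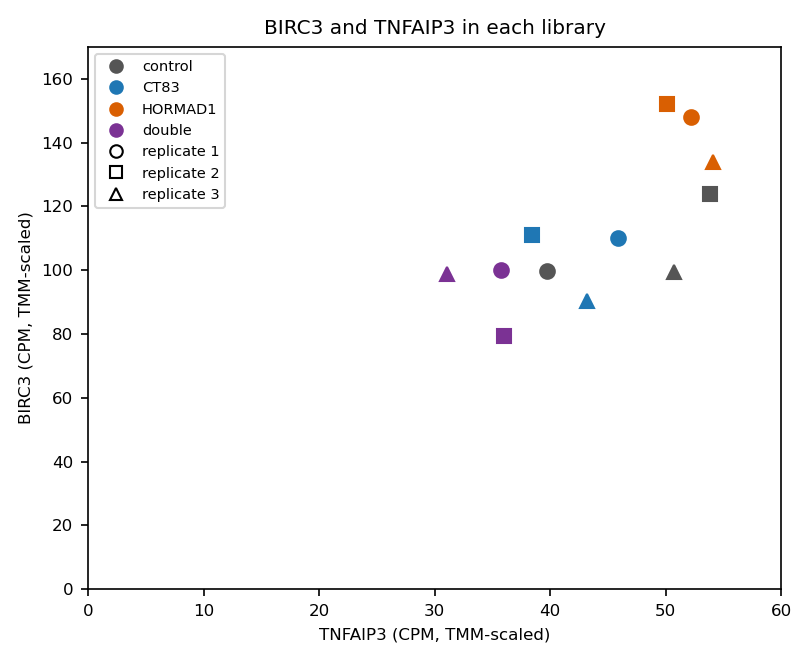
CPM of BIRC3 (y axis) against TNFAIP3 (x axis) in the 12 libraries, coloured by line, with a symbol for each replicate number. The HORMAD1 libraries lie highest, at 134 to 152 CPM of BIRC3. The double libraries lie farthest left, at 31.1 to 36.0 CPM of TNFAIP3.

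An entry with no symbol, ENSG00000288528, is listed directly before BIRC3 in the files, which are in genome order, and its counts were 66.1% to 76.4% of those of BIRC3 in every library. It is not in GENCODE 29, and reads could be shared between the 2 entries. Adding both together gave -0.69 for the double line against HORMAD1 (edgeR adjusted p = 0.0332) and 0.49 for HORMAD1 against control (adjusted p = 1.00), the same directions as for BIRC3 alone. The share of all genes called in that fit was not counted.

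The remaining feedback genes moved by less. TNIP1, which binds A20, was at 215, 249 and 210.2 CPM in control, 219, 217 and 212 with CT83, 235, 245 and 244 with HORMAD1 and 215, 209 and 193 in the double line. Its double libraries all lay below its HORMAD1 libraries (log2 fold change -0.23, SE 0.08, unadjusted p = 0.0109, edgeR adjusted p = 0.468), while control overlapped both. NFKBIA, the IkB alpha gene, had its widest spread in the CT83 line (137, 121 and 89.1 CPM) and the double line (131, 136 and 94.5), and was at 112, 111 and 126 in control and 109.5, 104 and 107 with HORMAD1. The 3 HORMAD1 libraries lay just below all control libraries (log2 fold change -0.12, SE 0.15), and NFKBIA was the only 1 of the 10 genes with a value above 0 for the double line against HORMAD1 (0.17, approximate 95% interval -0.17 to 0.52). SOD2, a mitochondrial antioxidant enzyme, stayed between 213 and 278 CPM in all 12 libraries with log2 fold changes between -0.07 and 0.08 in the 5 comparisons of 2 lines. WTAP lies on the opposite strand of the annotated SOD2 locus with up to 1575 counts, and whether counting used strand is not given in the sources used here, so reads of both could have been mixed.

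The subunit genes showed small shifts. NFKB2, the p100 gene, was at 43.9, 52.6 and 41.5 CPM in control, 42.5, 51.3 and 65.0 with CT83, 62.6, 51.2 and 46.2 with HORMAD1 and 41.4, 39.7 and 43.5 in the double line. The double libraries were tight and lay below all 3 HORMAD1 libraries (log2 fold change -0.36, SE 0.15, unadjusted p = 0.0281, edgeR adjusted p = 0.590), and the interaction was -0.56 (SE 0.21, edgeR adjusted p = 0.841). Without HORMAD1 replicate 1, the highest of that line, the value against HORMAD1 was -0.24 (edgeR adjusted p = 0.718). NFKB1, the p105 gene, was at 89.9, 96.3 and 87.6 CPM in control and 73.8, 84.2 and 83.9 in the double line, which did not overlap (log2 fold change -0.18, SE 0.10, edgeR adjusted p = 0.900); its CT83 and HORMAD1 libraries spanned 75.0 to 99.9. REL, whose few reads make it the least precise of the 10, was at 8.04, 7.61 and 9.44 CPM in control and 7.28, 6.23 and 7.05 in the double line, also without overlap (-0.29, SE 0.19, edgeR adjusted p = 0.900). RELB was at 22.2, 21.1 and 22.4 CPM with HORMAD1 and 19.5, 20.7 and 15.4 in the double line, without overlap (-0.24, SE 0.13, edgeR adjusted p = 0.705). RELA, the main transactivating subunit, was at 62.6, 66.4 and 61.0 CPM in control, 54.3, 60.5 and 72.3 with CT83, 70.5, 55.1 and 55.9 with HORMAD1 and 50.0, 65.8 and 60.7 in the double line, and every pair of lines overlapped.

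Read as a group, 9 of the 10 genes had a value below 0 for the double line against HORMAD1, with a median log2 fold change of -0.23, where the median of all genes tested was -0.01 and 51.9% of them were below 0. The sign count alone did not set this comparison apart. CT83 against control also had 9 of 10 below 0, with a median of -0.05 (0.01 for all genes). The double line against CT83 had 8 of 10 below 0, with a median of -0.09. In 5 of the 10 (NFKB2, RELB, TNFAIP3, BIRC3 and TNIP1) all 3 double libraries lay below all 3 HORMAD1 libraries, against 5.91% of all genes. Against control, 3 of the 10 (NFKB1, REL and TNFAIP3) lay lower without overlap in the double line, against 7.83% of all genes, and the median was -0.14, with 8 of 10 below 0 (50.3% of all genes). Against CT83, TNFAIP3 alone lay lower without overlap (9.04% of all genes). HORMAD1 against control had 1 higher (BIRC3) and 1 lower (NFKBIA) without overlap, against 4.25% and 3.32% of all genes, and CT83 against control had none, against 10.5% of genes in either direction. The comparisons of the double line share its 3 libraries, and those against control share the control libraries. As the mean log2 deviation of the 10 from their 12-library means, the lines stood at 0.03 ± 0.08 for control, -0.01 ± 0.04 for CT83, 0.11 ± 0.06 for HORMAD1 and -0.13 ± 0.05 for the double line (SD, n = 3).

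**Figure D3:**
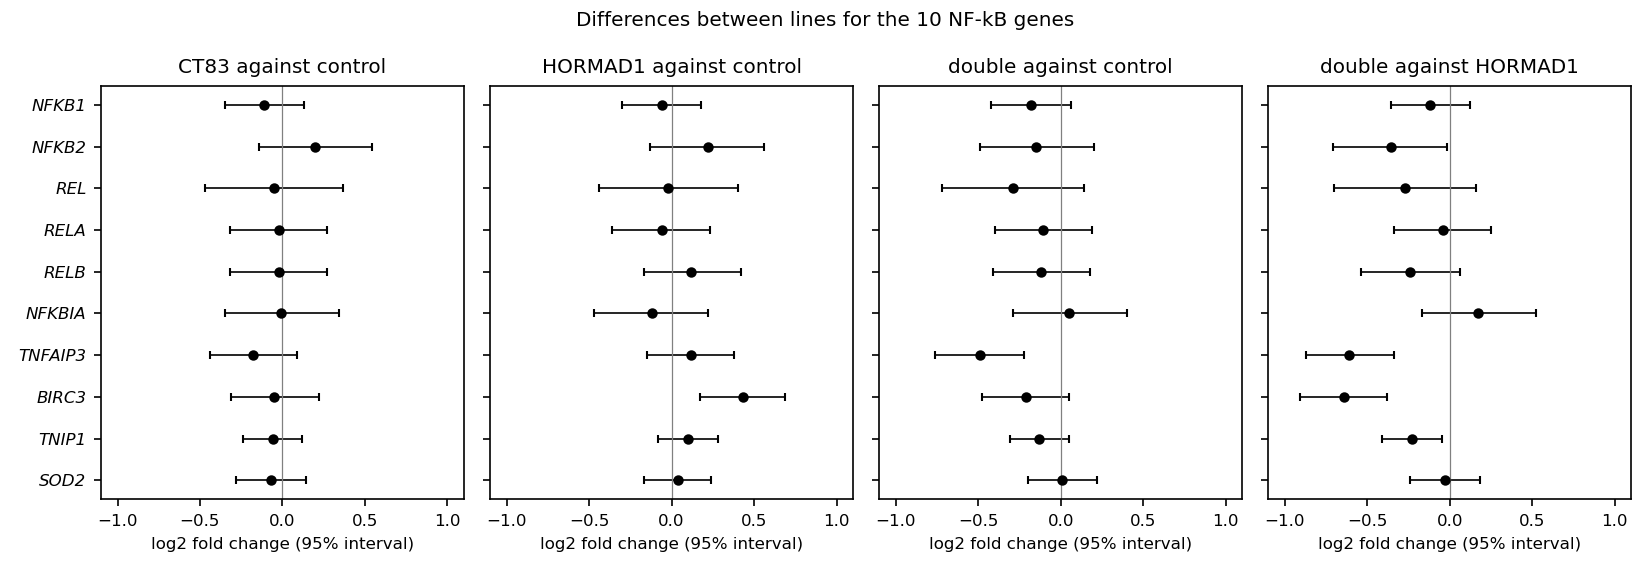
Log2 fold change of each of the 10 genes in 4 comparisons, with approximate 95% intervals from the model. The intervals of BIRC3, TNFAIP3, TNIP1 and NFKB2 lie wholly below 0 for the double line against HORMAD1, and that of SOD2 spans 0 in every panel.

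Part of the spread within lines correlated with the length trend of the libraries, but not in the order of the genes' own lengths. Merged exons were 16493 bases for SOD2, 5464 for RELA and 4484 for NFKB2. Over the 12 libraries as deviations from their line means, NFKB2 was higher where the trend was steeper (Pearson r = 0.91, permutation p = 0.00231, adjusted over the 10 genes 0.0154; Spearman rho = 0.79, permutation p = 0.0177, adjusted 0.0592; r = 0.84 without the 2 farthest libraries). RELA did so too (r = 0.85, permutation p = 0.01, adjusted 0.0334; rho = 0.92, p = 0.00617, adjusted 0.0309; r = 0.70 without the 2 farthest). SOD2 was lower there (r = -0.90, permutation p = 0.00309, adjusted 0.0154; rho = -0.94, p = 0.00231, adjusted 0.0231; r = -0.80 without the 2 farthest). For BIRC3 and TNFAIP3 r was 0.04 and -0.05 over all 12 libraries (permutation p = 0.894 and 0.874, adjusted 0.95 each). Without the 2 farthest libraries r was 0.36 and -0.13. These r do not measure the part of the trend in differences between lines. The double libraries held slope ranks 12, 11 and 4, where rank 1 is the steepest rise. The part of the trend in the values of NFKB2, RELA, BIRC3 and TNFAIP3 was not tested, apart from a fit with length and GC content as an offset. For the double line against HORMAD1 that fit called 10 of all genes tested and 0 of the 10 genes followed here, and gave -0.26 for NFKB2 and -0.13 for TNIP1. Its values for BIRC3 and TNFAIP3 lay within the ranges over all alternatives (-0.70 to -0.54 and -0.64 to -0.54).

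**Figure D4:**
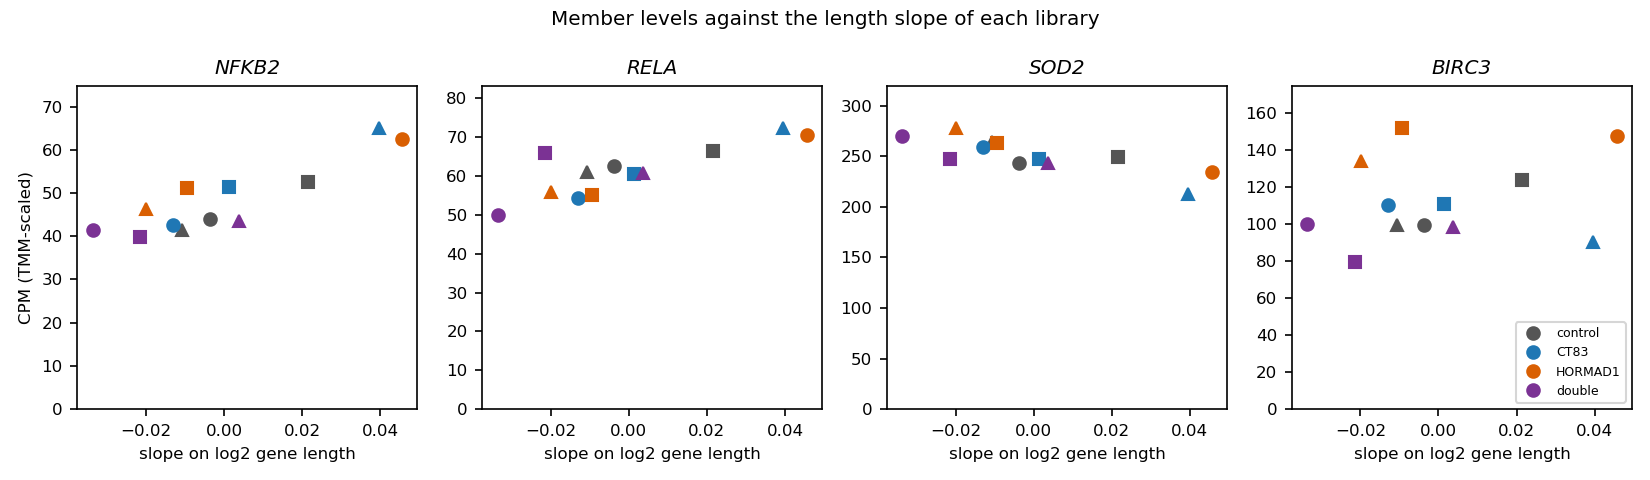
CPM of NFKB2, RELA, SOD2 and BIRC3 against the length trend of each library (slope of log2 CPM deviations on log2 gene length), coloured by line. Within lines the correlation with the slope is 0.91 for NFKB2, 0.85 for RELA, -0.90 for SOD2 and 0.04 for BIRC3.

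Among the 45 pairs of the 10 genes, correlations over the 12 libraries, which share lines and library preparation, had a median of 0.29 and ran from -0.84 to 0.82, and within lines the median was 0.08. TNFAIP3 and TNIP1 had the highest value (r = 0.82), followed by BIRC3 with TNIP1 (0.80) and RELB with TNFAIP3 (0.80, and 0.80 within lines). TNFAIP3 and BIRC3 had r = 0.69, but 0.07 within lines, so that their likeness lay between lines. RELA and SOD2 ran opposite (-0.84, and -0.91 within lines), and 9 of the 10 pairs of subunits had a value above 0 within lines.

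By the same measure, over 12205 other genes, CXCL16 (r = 0.94), TP53I11 (0.92), PODXL (0.90), KDM4A-AS1 (0.90) and CMAHP (0.89) were most like the mean of the 10. The chemokine CXCL16 had r = 0.81 within lines. CMAHP (0.94), C15orf48 (0.92) and STAT3 (0.89) were most like TNFAIP3; STAT3, a transcription factor of cytokine signalling, had a mean of 113 CPM. Genes most like BIRC3 were the entry ENSG00000288528 (0.98), KLHL5 (0.94) and ENSG00000249207 (0.93). These genes were picked as the highest of many, so a high value was to be had by choice alone.

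Other genes of the pathway were counted by role, from lists chosen with earlier results of these data known. At an adjusted p under 0.05 edgeR called no gene of any list in any comparison; at an unadjusted p under 0.05, each list other than the targets had at most 2 genes in any comparison. Of the list genes named here, DESeq2 called IL32 (adjusted p = 0.00758) and PTGS2 (0.0243) for the double line against HORMAD1, and limma-voom called none. Of 27 listed NF-kB targets 21 were tested, since TNF, BCL2A1, CCL2, CCL5, CXCL10 and VCAM1 had too few counts. Of these 21, 20 had a value below 0 for the double line against HORMAD1 (51.9% of all genes), with a median of -0.34. An unadjusted edgeR p under 0.05 was found for 7, all lower (4.14% of all genes). For HORMAD1 against control 15 of 21 were above 0 (52.0% of all genes) with a median of 0.19. There 2 had an unadjusted edgeR p under 0.05 (1.82% of all genes in either direction). For the double line against control 18 of 21 were below 0 (50.3% of all genes) with a median of -0.14. There 4 had an unadjusted edgeR p under 0.05 (5.56% of all genes in either direction). Against CT83 the double line was near even, with 12 of 21 below 0 and a median of -0.07. For CT83 against control 14 of 21 were below 0, with a median of -0.11. IL32, a secreted inflammatory protein, was at 23.8, 25.6 and 28.1 CPM in control, 18.7, 20.4 and 21.1 with CT83, 22.1, 30.3 and 31.7 with HORMAD1, and 17.4, 18.2 and 14.6 in the double line, below all others (against HORMAD1 -0.74, SE 0.14, edgeR adjusted p = 0.127). PTGS2, the inducible cyclooxygenase, was at 14.6, 18.6 and 25.2 CPM with HORMAD1 and 11.1, 10.5 and 9.56 in the double line (-0.90, SE 0.21, edgeR adjusted p = 0.171). IL1A, an interleukin-1 that itself activates NF-kB, was at 197, 194 and 172 CPM with HORMAD1, above all control libraries at 140.1, 133 and 146 (0.43, SE 0.10, edgeR adjusted p = 1.00), and at 155, 127 and 165 in the double line. LAMB3, a laminin chain and the most abundant target, spread from 475 to 1071 CPM and overlapped between lines.

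Upstream of the factor, receptors, kinases and adaptors were counted next. Of 13 tested receptors (TNFRSF1B, TLR4 and TLR6 had too few counts), the median was 0.10 for HORMAD1 against control, 0.12 for the double line against control, 0.14 against CT83 and 0.00 against HORMAD1. The upper quartile of all genes was 0.10, 0.11, 0.12 and 0.11 in these comparisons. IL1R1, the interleukin-1 receptor, was at 12.9, 10.5 and 12.2 CPM with HORMAD1 and 10.9, 11.7 and 12.1 in the double line, above control at 9.40, 10.1 and 7.75 (0.39 and 0.35, SE 0.15 each, edgeR adjusted p = 1.00 and 0.866). TLR3, a sensor of double-stranded RNA, was higher in the double line than in CT83 (0.54, SE 0.16, edgeR adjusted p = 0.585). Of 20 kinases and adaptors the median lay between -0.02 and 0.02 in all 6 comparisons; the adaptor MYD88 was at 36.7, 35.8 and 42.4 CPM with CT83, below control at 48.1, 44.5 and 48.5 (-0.30, SE 0.12, edgeR adjusted p = 0.984), and TAB2, IKBKG and IRAK1 passed no test at an adjusted p. Of 5 other IkB genes, none had an unadjusted p under 0.05 in any comparison, and NFKBIE, NFKBIZ, NFKBID and NFKBIB had values between -0.28 and 0.16 in the 5 comparisons of 2 lines. Of 15 other negative regulators, the deubiquitinase USP7 was lower in the double line than in CT83 (-0.33, SE 0.11, edgeR adjusted p = 0.585), the RNase ZC3H12A was at 46.5 ± 3.89 CPM in the double line and 59.3 ± 15.1 with HORMAD1, and CYLD and ITCH passed no test at an adjusted p.

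**Figure D5:**
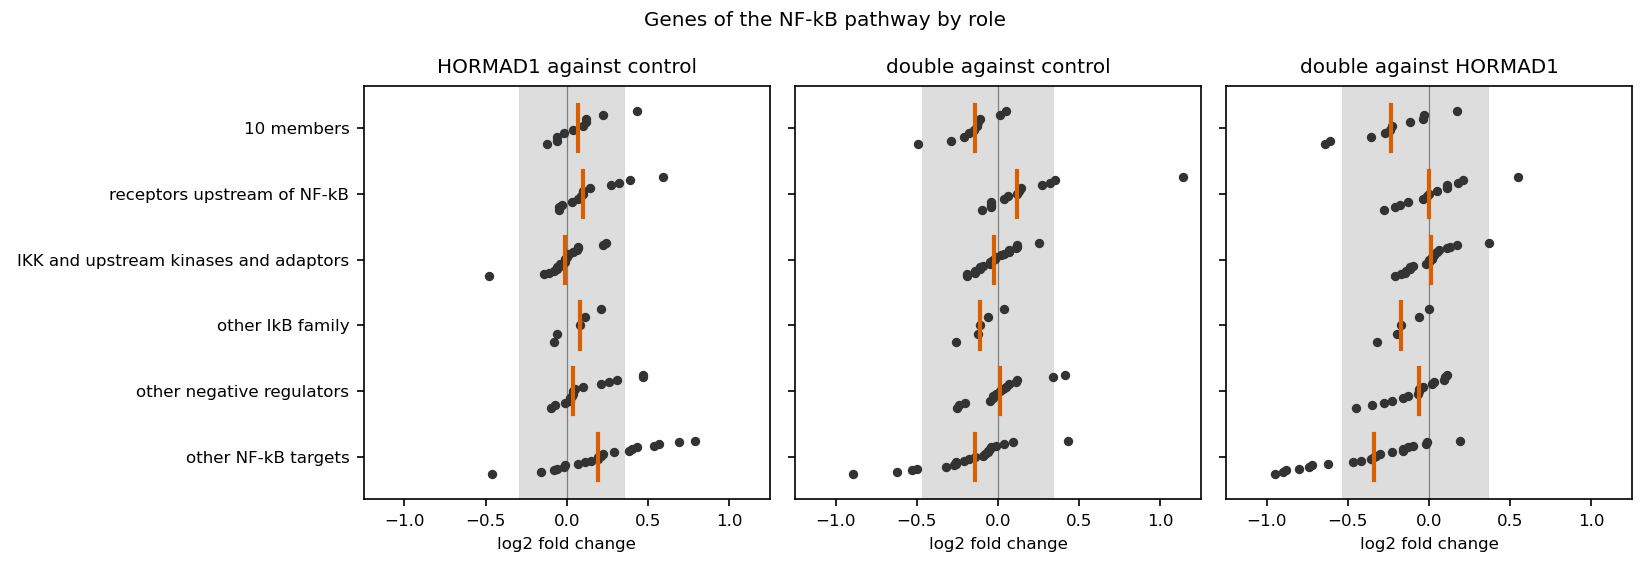
Log2 fold changes of the genes of each role list in HORMAD1 against control, the double line against control and the double line against HORMAD1; the grey band spans the 5th to 95th percentile of all genes and the orange mark is the list median. The NF-kB targets have a median of -0.34 for the double line against HORMAD1, where 20 of 21 lie below 0.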

How the data were processed

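Polyadenylated RNA of 12 libraries was sequenced. The authors deposited 1 table of estimated counts per library with 61533 gene entries, made from reads by a counting step that is not given in the sources used here, strand use included. The submitters' processing notes name the tools Trimmomatic 0.39, STAR 2.7.5c, Picard and SAMtools, and the builds hg38 and hg19 without roles. Rounding to whole numbers changed 6.75% of values by at most 0.5; raw counts had been assumed in the design, and its test was kept. The members and lists were chosen with earlier results of these data known. Symbols came from an identifier table (61518 matched), and SOD2 from GENCODE 29; coordinates and lengths are GENCODE 29 (GRCh38).

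With edgeR 4.0.16 in R 4.3.3, low genes were removed by filterByExpr (minimum count 10, 15616 genes left), libraries scaled by TMM and fitted with a robust quasi-likelihood model of 4 line means over 12 libraries (8 residual degrees of freedom), tested on simulated data. Calls used a Benjamini-Hochberg adjusted p under 0.05 over all genes. Length trends were tested by 1296 permutations within lines. Named genes were all 10 members, up to 3 genes per list with the smallest p over the 4 lines and a mean log2 CPM of at least 2, the most abundant of each list, and the most alike genes. Totals were 9898845 to 14159740 counts, giving a median SE of 0.15 on the log2 scale. No replicates were identical (chi-square per degree of freedom 2.54 to 26.4). Alternatives were other scalings and filters, DESeq2 1.42.0, limma-voom (limma 3.58.1), the replicate block, a length and GC offset, only the groups compared, a threshold of 0.01 and leaving out each library.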

Additional observations from a re-analysis of the deposited data

How the results depend on the processing

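Over the alternatives run, 1376 values of the 10 genes were recomputed in the 6 signed comparisons. No called value changed direction, 74 uncalled values did, and 12 values were called. In the test of any difference between the 4 lines, BIRC3 and TNFAIP3 were each called in 3 alternatives. The 10 genes were called 0 times in each comparison as first fitted. The numbers of all genes called were 1, 1, 4, 1, 7, 0 and 7 for CT83, HORMAD1 and the double line against control, the double line against CT83 and against HORMAD1, the interaction and any difference. Leaving out each library in turn gave 0 to 1, 1 to 2, 1 to 5, 1 to 2, 0 to 39, 0 to 0 and 1 to 23 genes, and 0 to 1 of the 10 genes for the double line against HORMAD1 (BIRC3, adjusted p 0.0344 to 0.311; TNFAIP3, 0.0519 to 0.342). A threshold of 0.01 gave 0 genes for CT83 against control, 1 for the double line against control, 0 against HORMAD1 and 1 for any difference; upper-quartile scaling and library size alone each gave 2 for any difference. No low-count filter gave 0, 12, 0, 99, 2 and 59 genes for CT83 and the double line against control, the double line against CT83 and HORMAD1, the interaction and any difference, with 2 of the 10 in the comparison with HORMAD1 and 2 in any difference. DESeq2 gave 2 genes for HORMAD1 against control, 3 for the double line against CT83, 62 against HORMAD1 (2 of the 10), 3 for the interaction and 21 for any difference (2 of the 10). Limma-voom gave 2, 2, 3 and 2 genes for the double line against control, CT83 and HORMAD1 and any difference. Only the groups compared gave 0, 0 and 1 genes for CT83 and HORMAD1 against control and the double line against HORMAD1. Without the 3 libraries with the steepest rise with length, chosen after seeing the data, the counts in the order above were 119, 6, 13, 73, 339, 22 and 599. Of the 10 genes, 1, 3, 1 and 2 were called for HORMAD1 against control, the double line against HORMAD1, the interaction and any difference. The cause was not tested. With the replicate number as a block, 2, 2, 1 and 2 genes were called for the double line against control, CT83 and HORMAD1 and any difference, and BIRC3 and TNFAIP3 had adjusted p of 0.147 and 0.210 against HORMAD1. Whether the replicate numbers pair the samples could not be settled from so few libraries. Of 18 same-number pairs, 6 had a correlation over 0.1 (range -0.35 to 0.35), and 6 of 12 libraries were closest to one of their own number. Changing the prior count from 2 to 0.5 moved the mean deviation of the 10 genes by 0.01 at most. REL, with the fewest counts, had the widest intervals.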
